A study of Homo sapiens with 4 samples.

Results

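The genes described here are 10 regulators of mitogen-activated protein (MAP) kinase signalling, DUSP1, DUSP4, DUSP5, DUSP6, DUSP10, SPRY2, SPRY4, SPRED1, SPRED2 and ETV5, out of 53777 rows with an Ensembl gene identifier. They were taken by gene symbol, each symbol had 1 row, and all 10 averaged at least 1 FPKM, the filter for testing. They were chosen by name with the FPKM of these same libraries, and so their knockdown against scramble differences, in view. That difference is therefore given as a description and is no test of them. FPKM is corrected for transcript length and for the size of the library, so levels can be compared between genes. The cells were NUGC3, a human line of gastric cancer, transfected either with short hairpins against NIPBL or with a scramble control. NIPBL loads the cohesin ring onto chromosomes. The 2 NIPBL knockdown libraries carried different hairpins, hairpin 1 and hairpin 7, and there were 2 scramble libraries. The letters DOX stand unexplained in every label, knockdown and scramble alike, and scramble 2 has the label of scramble 1 plus a suffix that could mark a repeat. No label says that libraries of a group were separate cultures, so p-values reflect the spread between libraries, which can be technical. In the knockdown group that spread also holds the difference between 2 hairpins, each with 1 library. After adding 1 to the FPKM and taking log2, the hairpin difference had an SD of 0.451 over all genes tested. The scramble difference had an SD of 0.282.

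Extracellular signals reach the MAP kinases ERK, JNK and p38 through chains of kinases that add phosphate in turn. Typical dual-specificity phosphatases (DUSPs) remove phosphate from both the threonine and the tyrosine that activate a MAP kinase, and many are transcribed in response to the very signal they end. Sprouty (SPRY) and Spred (SPRED) proteins act further up, between receptor tyrosine kinases, Ras and Raf. ETV5 is not an inhibitor but an ETS transcription factor of the PEA3 group, whose transcript is commonly read, with those of DUSP6 and SPRY4, as an output of ERK activity.

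NIPBL, the gene targeted, was at 7.27 and 9.17 FPKM with hairpins 1 and 7, against 23.9 and 23.1 FPKM in the scramble libraries (log2 change -1.42 ± 0.14, SE, limma, adjusted p = 0.0218). That call was lost with no filter on low values (adjusted p = 0.118), without scramble 1 (0.257), without scramble 2 (0.261) and with the scramble libraries averaged (0.281; limma), with the sign kept. Every log2 change given is knockdown minus scramble in log2(FPKM + 1) units, in which changes of low genes come out too small. The summed FPKM of a library lay between 682076 and 749446, which does not give its read depth, and that depth is unknown. The epithelial markers EPCAM, KRT8, KRT18, KRT19 and CDH1 were all detected, the lowest of them at 54.2 FPKM. The 6 gastric differentiation markers looked up (TFF1, TFF2, MUC5AC, MUC6, CLDN18 and GKN1) reached at most 2.48 FPKM in any library. TFF1 was at 2.48 and 1.02 FPKM with the hairpins against 0 and 0.17 FPKM in scramble. GKN1 was at 0.23 and 0.08 FPKM with the hairpins and listed at 0 in scramble. MUC6 was at 0.11 and 0.08 FPKM with the hairpins against 0.17 and 0.49 FPKM in scramble. TFF2 was listed at 0 in all libraries but scramble 2, where it was at 0.1 FPKM. Among markers of other cell types PTPRC was listed at 0 throughout, CD3E reached at most 0.12 FPKM, COL1A1 was at 9.39 and 7.34 FPKM with the hairpins against 6.57 and 5.75 FPKM in scramble, and PECAM1 was not analysed here. CD68, a lysosomal protein gene used as a macrophage marker, was at 31.5 and 37.7 FPKM with the hairpins against 12.4 and 17.1 FPKM in scramble, and its part in the results below was not tested. In a bulk library fewer cells that express a gene and less RNA per cell cannot be told apart.

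DUSP1 stood far from the other genes of the set. Its product is a nuclear phosphatase of p38, JNK and ERK, and it is a classical immediate early gene. DUSP1 (ENSG00000120129, chromosome 5 in GENCODE 29) was at 228 FPKM with hairpin 1 and 213 FPKM with hairpin 7, against 28.2 and 26.8 FPKM in the scramble libraries. Both hairpin libraries were high and within 0.10 of each other on the log2(FPKM + 1) scale, and the groups lay far apart. The mean was 221 ± 11.0 FPKM in knockdown and 27.5 ± 0.976 FPKM in scramble libraries (SD, n = 2 each), a ratio of 8.02 and a log2 change of 2.96 ± 0.09 (SE, limma). Among 12834 genes tested, that was the log2 change of rank 8 from the top. DUSP1 was the only member called in the fit over all genes at an adjusted p under 0.05 (limma), 1 of 10, where 2.56% of all genes tested were called, 1.45% higher and 1.11% lower, and nothing is read from that count because the set was picked with this contrast known. The call was lost without scramble 1 and without scramble 2, with log2 changes of 2.99 and 2.92, in fits in which 0 of all genes tested were called (1060 and 1052 at an unadjusted p under 0.05; limma). In a fit with no filter on low values and in one with the scramble libraries averaged it was lost as well (log2 change 2.96 in both).

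**Figure D1:**
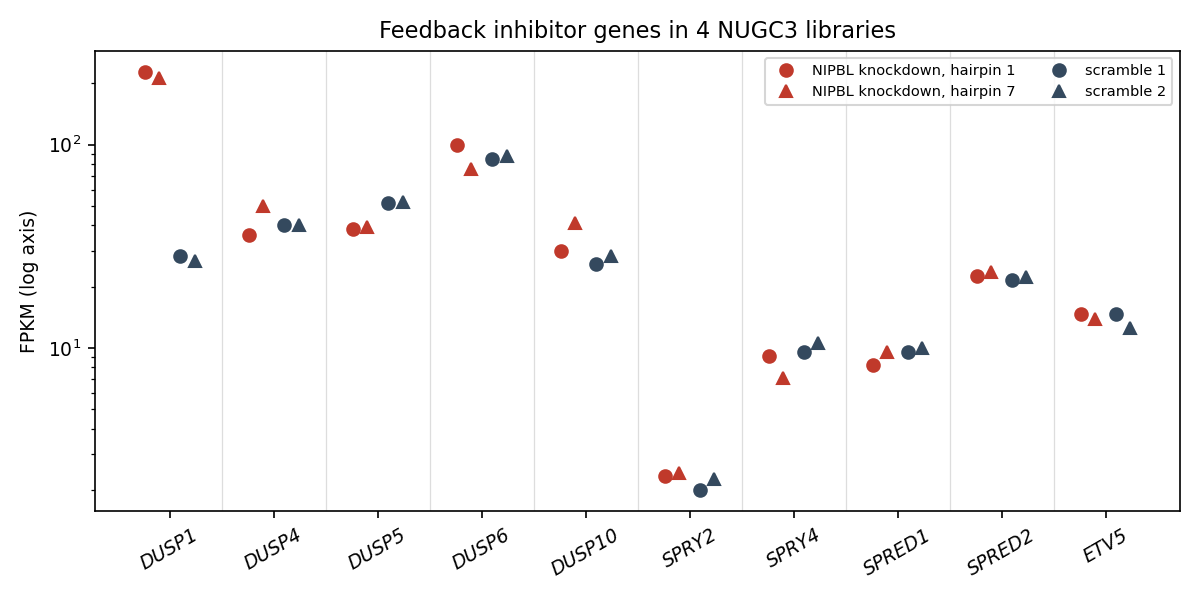
FPKM (log axis) of the 10 genes in each of the 4 libraries, with NIPBL knockdown libraries in red (circle for hairpin 1, triangle for hairpin 7) to the left of scramble libraries in dark grey (circle for scramble 1, triangle for scramble 2). DUSP1 is at 228 and 213 FPKM with the hairpins against 28.2 and 26.8 FPKM in scramble, while the points of the other genes lie close together.

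The promoters of DUSP1 and DUSP6 are shown because these were the most abundant transcripts of the set in knockdown libraries, one with the large difference and one at nearly the same mean in both groups. Each line holds the 250 bases before the annotated start (RefSeq, GRCh38.p14, minus strand), 5′ to 3′. DUSP1 lies at chr5:172771196-172771445 and DUSP6 at chr12:89352502-89352751. Capitals mark matches to the motifs searched.
DUSP1: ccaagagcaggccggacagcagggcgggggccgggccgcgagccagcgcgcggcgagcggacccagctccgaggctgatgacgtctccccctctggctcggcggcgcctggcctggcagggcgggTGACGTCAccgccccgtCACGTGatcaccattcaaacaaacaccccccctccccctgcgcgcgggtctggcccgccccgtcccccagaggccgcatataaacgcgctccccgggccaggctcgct
DUSP6: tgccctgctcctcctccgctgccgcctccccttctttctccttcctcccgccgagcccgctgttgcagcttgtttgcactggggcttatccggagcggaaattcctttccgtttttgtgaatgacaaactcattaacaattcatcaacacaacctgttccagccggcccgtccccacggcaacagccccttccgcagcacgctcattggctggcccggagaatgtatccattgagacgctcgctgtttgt

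The DUSP1 window held a full cyclic AMP response element (CRE, TGACGTCA) at 125 to 118 bases before the start. It also held an E-box (CACGTG) at 108 to 103 bases before it. The DUSP6 window held no match to the 6 motifs searched on both strands. These were CRE, E-box, AP-1 (TGANTCA), an ETS motif as CCGGAAGT and in its shorter form GGAAGT, which the longer one contains, and the CArG box of serum response factor. RefSeq windows were found for 7 of the 10 genes, 11 windows in all because DUSP10, SPRED2 and SPRY2 have several starts. Of these windows 9 held no match to any motif, and 1 SPRY2 window held the shorter ETS motif. Among 35116 RefSeq promoter windows of the same length, 1.65% held the CRE, 6.34% the E-box, 6.57% the AP-1 motif, 3.42% the longer and 19.5% the shorter ETS motif, and 1.16% the CArG box. A match describes these letters in this window and was not set against any binding data.

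The other nuclear phosphatases of the set showed no difference of that size. DUSP4, whose product acts on ERK and JNK, was at 36.1 FPKM with hairpin 1 and 49.8 FPKM with hairpin 7, against 40.1 and 40.2 FPKM in scramble. One hairpin was below and the other above both scramble libraries. Its mean was 42.9 ± 9.68 FPKM in knockdown and 40.2 ± 0.0636 FPKM in scramble libraries (SD, n = 2 each; log2 change 0.08 ± 0.17, SE). DUSP5, whose product binds and inactivates nuclear ERK, was at 38.2 and 39.3 FPKM with the hairpins, against 51.7 and 52.5 FPKM in scramble. Both hairpins were lower, by nearly the same amount, and the groups did not overlap. The DUSP5 mean was 38.7 ± 0.728 FPKM in knockdown and 52.1 ± 0.523 FPKM in scramble libraries (SD, n = 2 each), which is 74.4% of the scramble level. The log2 change of -0.42 ± 0.09 (SE) was not called. It had the lowest log2 change of the set.

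DUSP6, the phosphatase of cytoplasmic ERK and the most abundant of these transcripts in scramble cells, was at 99.8 FPKM with hairpin 1 and 76.2 FPKM with hairpin 7, against 84.96 and 87.49 FPKM in scramble. The hairpins lay on opposite sides of both scramble libraries, as they did for DUSP4 and for 19.0% of all genes tested. The means therefore nearly coincided at 88.0 ± 16.7 FPKM in knockdown and 86.2 ± 1.79 FPKM in scramble libraries (SD, n = 2 each; log2 change 0.02 ± 0.15, SE). DUSP10, whose product acts on p38 and JNK rather than ERK, was at 29.9 FPKM with hairpin 1 and 41.0 FPKM with hairpin 7, against 25.9 and 28.2 FPKM in scramble. The hairpin 7 library stood above the rest, and hairpin 1 was only just above scramble 2. The log2 change of DUSP10 was 0.36 ± 0.17 (SE), the highest after that of DUSP1, and was not called. Taken singly, hairpin 7 lay 0.58 and hairpin 1 lay 0.14 above the mean of the scramble libraries on that scale.

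The Sprouty and Spred transcripts differed little. SPRY2, an inhibitor of receptor tyrosine kinase signalling that binds the ubiquitin ligase CBL, was at 2.33 and 2.43 FPKM with the hairpins, against 1.99 and 2.25 FPKM in scramble. It was the least abundant gene of the set in every library (log2 change 0.12 ± 0.16, SE). SPRY4, which acts ahead of Raf, was at 9.09 and 7.08 FPKM with the hairpins, against 9.52 and 10.6 FPKM in scramble. Both hairpins were lower than both scramble libraries, hairpin 7 the more so (log2 change -0.29 ± 0.15, SE, not called). SPRED1, which brings the Ras inactivator neurofibromin to the membrane, was at 8.18 and 9.52 FPKM with the hairpins, against 9.52 and 9.99 FPKM in scramble, so that hairpin 7 tied with scramble 1 (log2 change -0.13 ± 0.12, SE). SPRED2, of the same family, was at 22.6 and 23.6 FPKM with the hairpins, against 21.5 and 22.3 FPKM in scramble, all within a narrow band (log2 change 0.07 ± 0.09, SE). ETV5 was at 14.7 and 13.8 FPKM with the hairpins, against 14.7 and 12.6 FPKM in scramble. Its groups overlapped, and the gap between its scramble libraries, 0.21 on the log2 scale, was wider than that between its hairpins, 0.09.

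The groups did not overlap for 6 of the 10 genes (DUSP1, DUSP10, SPRY2 and SPRED2 higher, DUSP5 and SPRY4 lower), where 60.3% of all genes tested did not overlap, 29.5% higher and 30.8% lower, so that the share is at the background. Without DUSP1 it was 5 of 9. For the 9 genes other than DUSP1 the absolute log2 change had a median of 0.12 and a maximum of 0.42, against a median of 0.23 over all genes tested. The median signed log2 change of all 10 was 0.07, that of the 9 was 0.06, and over all genes tested it was -0.01.

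The order of the levels differed between the groups in the places of DUSP1, of DUSP4 and DUSP5, and of SPRY4 and SPRED1. In knockdown libraries the order of mean FPKM was DUSP1, DUSP6, DUSP4, DUSP5, DUSP10, SPRED2, ETV5, SPRED1, SPRY4 and SPRY2. The neighbours DUSP4 and DUSP5, DUSP5 and DUSP10, and SPRED1 and SPRY4 overlapped there. In scramble libraries it was DUSP6, DUSP5, DUSP4, DUSP1, DUSP10, SPRED2, ETV5, SPRY4, SPRED1 and SPRY2. There, DUSP1 and DUSP10 overlapped, as did SPRY4 and SPRED1.

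The 10 typical phosphatase genes (the 5 in the set with DUSP2, DUSP7, DUSP8, DUSP9 and DUSP16) summed to 455 and 440 FPKM with hairpins 1 and 7, against 256 and 261 FPKM in scramble. DUSP1 made up 50.2% and 48.4% of that sum with the hairpins, against 11.0% and 10.3% in scramble. The other 9 genes together were at 226 and 227 FPKM with the hairpins, against 228 and 234 FPKM in scramble. That is 227 ± 0.707 FPKM in knockdown and 231 ± 4.38 FPKM in scramble libraries (SD, n = 2 each), a ratio of 0.984. That sum holds parts that differed in direction. DUSP2, DUSP4 and DUSP5, the other nuclear phosphatases, summed to 77.0 and 91.1 FPKM with the hairpins, against 95.7 and 96.8 FPKM in scramble. DUSP8, DUSP10 and DUSP16, which act on JNK and p38, summed to 37.0 and 49.2 FPKM with the hairpins, against 32.9 and 35.4 FPKM in scramble. The groups did not overlap for either sum, nor for the 9 genes together, as for 60.3% of all single genes tested. DUSP10, at 29.9 and 41.0 FPKM with the hairpins, made up most of the sum of DUSP8, DUSP10 and DUSP16. The sum of DUSP6, DUSP7 and DUSP9, the cytoplasmic ERK phosphatases, was 112 and 87.0 FPKM with the hairpins, against 99.0 and 101 FPKM in scramble, and the hairpins again lay on either side. The 7 Sprouty and Spred genes summed to 46.9 and 46.8 FPKM with the hairpins, against 47.6 and 51.5 FPKM in scramble, again without overlap.

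**Figure D2:**
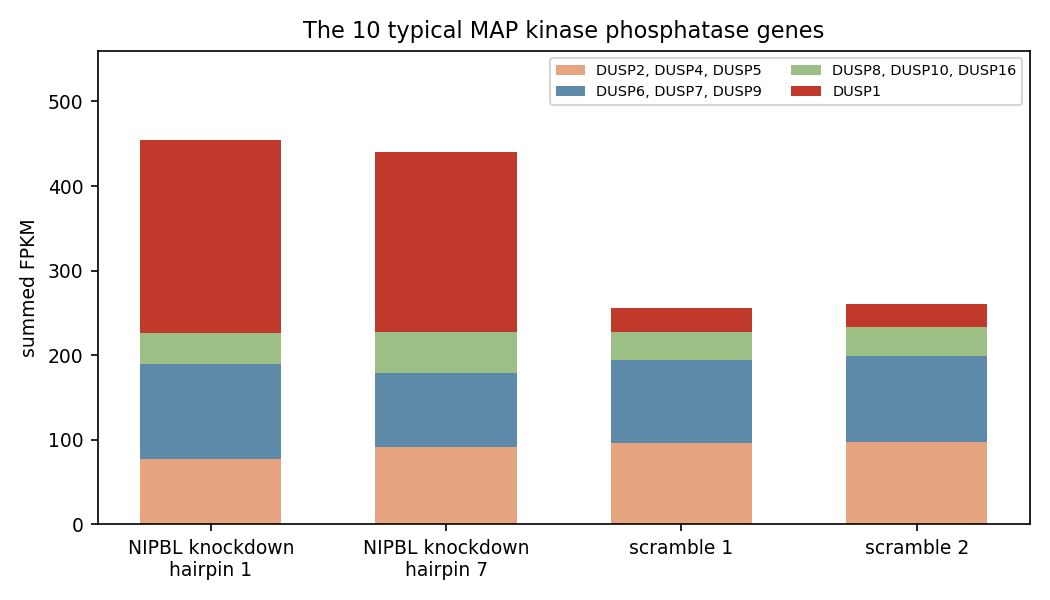
Summed FPKM of the 10 typical MAP kinase phosphatase genes in each library, NIPBL knockdown bars left of scramble bars, split into DUSP1 (red, on top), the other nuclear phosphatases, the cytoplasmic ERK phosphatases and those of JNK and p38. The part below the red segment is 226 and 227 FPKM with the hairpins and 228 and 234 FPKM in scramble.

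The hairpins were closer to each other for some genes than for others. Hairpin 7 minus hairpin 1 was 0.45 for DUSP4, 0.44 for DUSP10, -0.38 for DUSP6 and -0.32 for SPRY4 on the log2(FPKM + 1) scale. Across the 10 genes its absolute value had a median of 0.15, against 0.23 over all genes tested. It was larger than the gap between the scramble libraries in 8 of the 10 genes, where 76.0% of all genes tested were so. Each hairpin is 1 library, so these differences have no replicate check.

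**Figure D3:**
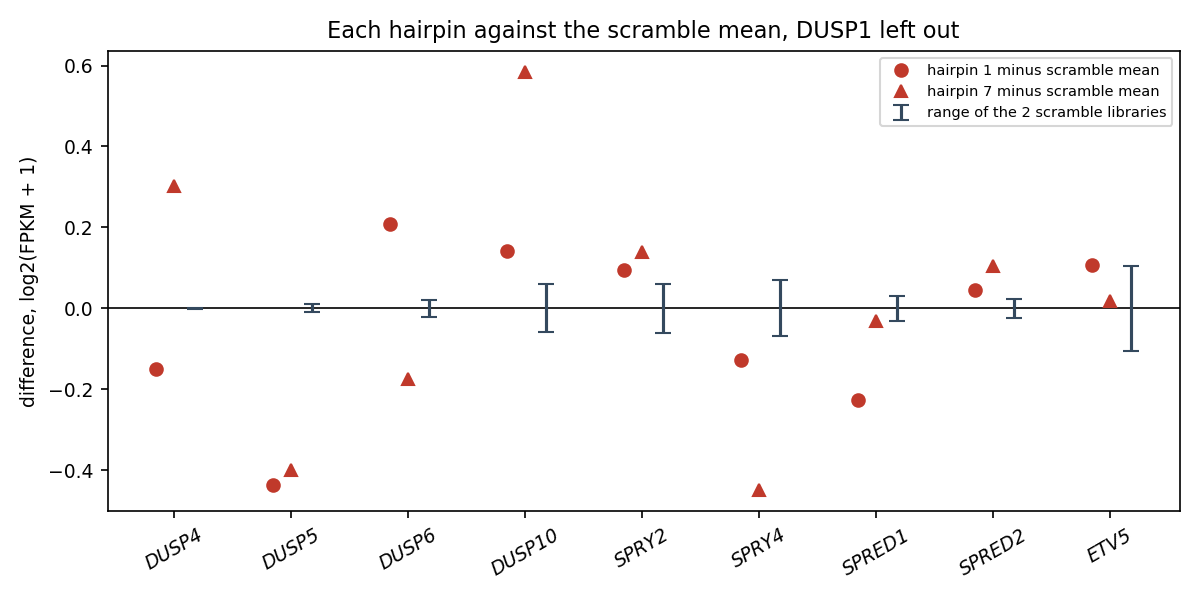
Difference of each hairpin library from the scramble mean on the log2(FPKM + 1) scale for the 9 genes other than DUSP1, hairpin 1 as red circles and hairpin 7 as red triangles, with the range of the 2 scramble libraries as a grey bar around 0. DUSP5 is the gene with both hairpins low by a similar amount, and DUSP4 and DUSP6 have them on opposite sides of 0.

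The rest of the pathway was read from lists of families, cascades and selected pathway genes, chosen with earlier results of these data known. Their counts stand beside 2.56% of all genes tested that were called and 26.4% that had an unadjusted p under 0.05 (limma), and 0 calls in a short list is near that background. None of the 4 tested genes among the 5 other typical phosphatases was called (limma, adjusted p under 0.05; 1 at an unadjusted p under 0.05), and all 4 had a negative log2 change. DUSP2, an inducible nuclear phosphatase, was at 2.73 and 2.10 FPKM with the hairpins against 3.83 and 4.15 FPKM in scramble (log2 change -0.55 ± 0.17, SE, limma, adjusted p = 0.136). DUSP7 and DUSP9 had log2 changes of -0.22 and -0.28. DUSP8, named after its values were seen, was below the filter at 0.96 and 1.17 FPKM with the hairpins and 0.18 and 0.35 FPKM in scramble. The Sprouty gene SPRY1 had a log2 change of -0.25, and SPRY3 and SPRED3 were below the filter. Of the other PEA3 factors, ETV4 was at 20.8 and 9.76 FPKM with the hairpins against 22.87 and 24.01 FPKM in scramble, lowest with hairpin 7 (log2 change -0.67 ± 0.34, SE, limma, adjusted p = 0.28), and ETV1 had a log2 change of 0.34. Of 10 atypical dual-specificity phosphatases tested, from a list of 16, 0 were called (1 at an unadjusted p under 0.05). STYXL1, DUSP28 and DUSP18 had the smallest p of them, with log2 changes of 0.47, 0.42 and 0.39.

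Further transcripts that are read as outputs of ERK, CCND1 (cyclin D1), EPHA2, EPHA4 and PHLDA1, had 0 of 4 called (2 lower at an unadjusted p under 0.05; limma). CCND1 was at 295 and 372 FPKM with the hairpins against 446 and 442 FPKM in scramble (log2 change -0.42 ± 0.14, SE, limma, adjusted p = 0.157). PHLDA1 had a log2 change of -0.30 and EPHA2 of -0.12. In the ERK cascade 0 of 20 genes were called (2 higher at an unadjusted p under 0.05), with 10 above and 10 below 0 and a median of 0.04. The kinase gene MAPK7, the adaptor gene FRS2 and MAP2K2 had log2 changes of 0.52, 0.35 and -0.22. In the JNK and p38 cascades 0 of 15 tested genes, from a list of 17, were called (4 at an unadjusted p under 0.05), with a median of -0.01. MAP2K4, an activator of JNK, had a log2 change of 0.55 and MAP3K1, a kinase above it, of -0.94 (limma, adjusted p = 0.0886 and 0.0903), and the p38 gene MAPK12 of -0.33.

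Other inhibitors of the ERK pathway gave 0 calls in 13 genes (6 at an unadjusted p under 0.05, 4 of them lower, where 26.4% of all genes tested had such a p; limma). The Ras GTPase-activating genes RASAL2 and RASA1 had log2 changes of -0.55 ± 0.12 and -0.55 ± 0.13, and the ubiquitin ligase gene CBLB of 0.56 ± 0.13 (SE, limma, adjusted p between 0.0825 and 0.0924). Across all 8 of these lists 0 of 69 tested genes were called and 16 had an unadjusted p under 0.05 (limma). That total leaves out the immediate early genes given next. With them 3 of 77 tested genes were called and 21 had an unadjusted p under 0.05 (limma). The shares of all genes tested were 2.56% and 26.4%.

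Immediate early genes, a selection made up mostly of transcription factors, were the list with calls. Of 8 tested from a list of 10, 2 were higher and 1 lower (limma, adjusted p under 0.05), beside 2.56% of all genes tested. The list was chosen with earlier results known, so that count is no test. FOS, a subunit of AP-1, rose to 339 and 326 FPKM with the hairpins, against 62.5 and 57.5 FPKM in scramble (log2 change 2.45 ± 0.10, SE, limma, adjusted p = 0.00609). FOSB, of the same family, rose to 87.2 and 60.2 FPKM with the hairpins, against 11.8 and 10.8 FPKM in scramble (log2 change 2.58 ± 0.19, SE, limma, adjusted p = 0.0161). EGR1, a zinc finger factor induced through ERK, fell to 11.7 and 9.81 FPKM with the hairpins, against 42.8 and 43.7 FPKM in scramble (log2 change -1.92 ± 0.12, SE, limma, adjusted p = 0.0112). Of the 8 tested, 4 were above and 4 below 0, with a median of -0.01, and 5 had an unadjusted p under 0.05 (limma). FOSL1, also of the FOS family, was lower, at 248 and 264 FPKM with the hairpins against 361 and 355 FPKM in scramble. JUNB was higher, at 89.1 and 79.2 FPKM against 57.4 and 52.8 FPKM. Neither was called, and both were named after their values were seen. The early genes thus went in both directions, also within the FOS family, with DUSP1 on the side of FOS and FOSB. The calls of FOS, FOSB and EGR1 were lost without scramble 1, without scramble 2 and with the scramble libraries averaged. Their signs were kept there, with log2 changes between 2.39 and 2.63 for FOS and FOSB and between -1.93 and -1.90 for EGR1. With no filter on low values these calls were lost as well, with the signs kept (limma, adjusted p between 0.0636 and 0.107).

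**Figure D4:**
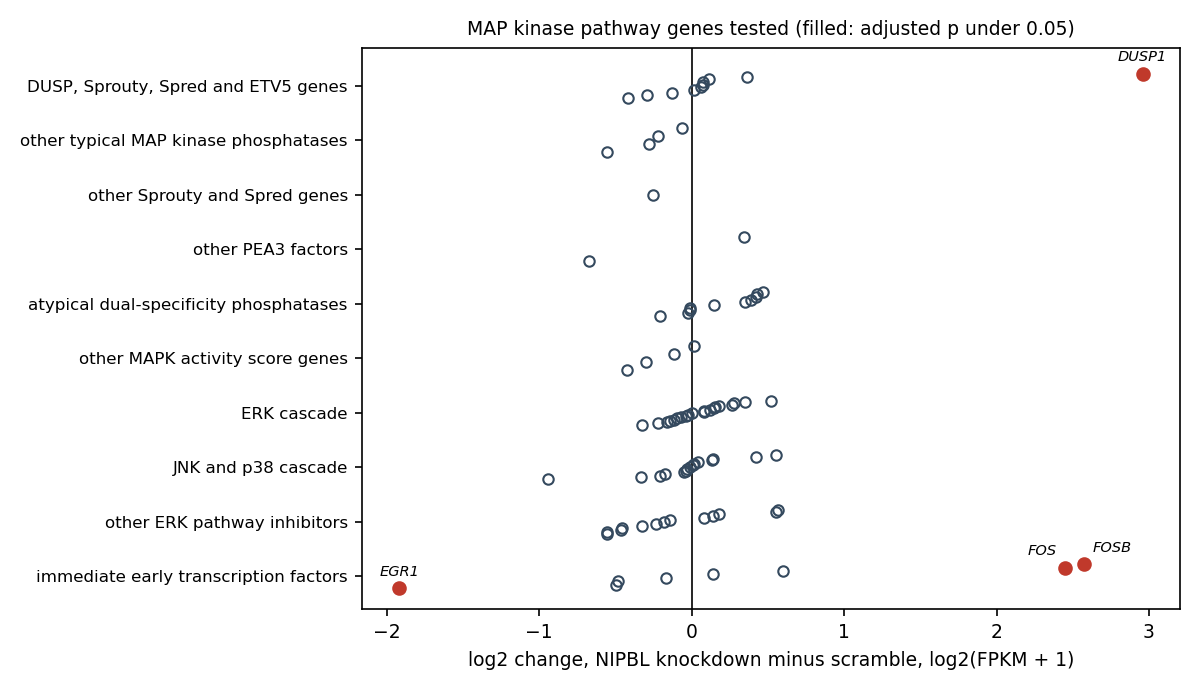
Log2 change (NIPBL knockdown minus scramble, log2(FPKM + 1) scale) of each gene tested in the set and in 9 lists of MAP kinase pathway genes, with filled red points for an adjusted p under 0.05 in the limma fit. DUSP1, FOS and FOSB stand at 2.96, 2.45 and 2.58, EGR1 at -1.92, and the open points lie between -0.94 and 0.60.

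Genes with the pattern most like that of DUSP1 across the 4 libraries were ID3, RRAD and NR4A2, by the Euclidean distance of centred log2(FPKM + 1) values over 11419 protein-coding genes outside the lists. NR4A2, an early-induced nuclear receptor gene, was at 41.5 and 28.7 FPKM with the hairpins against 4.43 and 4.69 FPKM in scramble, at a distance of 0.42. ID3 and RRAD were at distances of 0.39 and 0.41, and no gene lay within 0.20. For DUSP5 the nearest were PDS5A, which encodes a cohesin regulator, C9orf142 and PKN3, at distances between 0.01 and 0.02, but 925 genes lay within 0.20 of it, so its pattern is a common one. With 4 libraries, likeness mostly reflects the difference between the groups.

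None of the genes beside DUSP1 on chromosome 5 was called. Among the genes tested, ordered as in GENCODE 29, ERGIC1 on one side was at 36.2 and 39.5 FPKM with the hairpins against 35.4 and 36.5 FPKM in scramble, and RPL26L1 beyond it at 52.7 and 42.5 FPKM against 55.5 and 58.3 FPKM. On the other side CTB-79E8.3 was at 28.3 FPKM with hairpin 7 and listed at 0 in the other libraries, and NEURL1B beyond it was at 2.74 and 3.18 FPKM with the hairpins against 1.91 and 1.86 FPKM in scramble. A value high with hairpin 7 alone was also seen beside DUSP5. There, RP11-525A16.4 was at 39.15 FPKM with hairpin 7, 0.08 FPKM with hairpin 1 and listed at 0 in scramble. Of the 40 genes that are the nearest on each side of the set (2 a side), 2 were called, beside 2.56% of all genes tested. One of them was KITLG beside DUSP6, the gene of the KIT receptor ligand, named after its values were seen, which fell to 2.06 and 2.89 FPKM with the hairpins against 10.4 and 10.7 FPKM in scramble. The strand setting is not given in the sources used here, so reads of a gene and of an antisense gene that overlaps it could not be separated. SPRY4-AS1, which overlaps SPRY4, was at 1.06 and 2.35 FPKM with the hairpins against 0.88 and 0.47 FPKM in scramble, and the antisense genes over DUSP1 and ETV5 that the table lists were at 0. DGKG, which overlaps ETV5 on the same strand in GENCODE 29, was at 11.4 and 8.15 FPKM with the hairpins against 5.58 and 5.96 FPKM in scramble, and was not called.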

How the data were processed

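The authors deposited gene-level FPKM values with 2 decimals. STAR and RSEM are named, with no version, in the submitters' processing notes. The genome build, annotation and filters were not given in the sources used here. Rows with no Ensembl identifier were left out and held 8.47% to 9.27% of a library's FPKM. RSEM shares reads among similar genes.

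After adding 1 and taking log2, values were fitted in R 4.3.3 by limma 3.58.1, using lmFit and then eBayes with a mean trend. The 12834 genes that averaged 1 FPKM or more entered. P-values were two-sided and were adjusted over all of these genes (Benjamini-Hochberg, threshold 0.05). Residual degrees of freedom were 2 and prior ones 2.87. With 2 libraries a side, exact permutation allows no p under 0.333, and it was not used. The fit was tested on simulated data of this comparison (12834 genes, 200 of them changed, 10 simulations). It called 23.4% of the genes made to differ 1.5-fold, 75.0% at 2-fold and 98.6% at 4-fold.

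The members and lists were chosen with earlier results of these data known. Named were all members, NIPBL, per list the genes called and the 3 with the smallest p, and the 3 genes most like the highest and the lowest member. Alternatives were another pseudocount, other filters, median centring, quantile normalization, no mean trend, and leaving out each library. Averaging the scramble libraries was added after seeing the data. Promoter windows came from RefSeq (GRCh38.p14).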

Additional observations from a re-analysis of the deposited data

Results flagged for a closer look

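For DUSP4 and DUSP6 the hairpins lay on opposite sides of both scramble libraries. Hairpin 7 minus hairpin 1 was 0.45 for DUSP4 and -0.38 for DUSP6 on the log2(FPKM + 1) scale. The difference was not tested, since each hairpin is 1 library. Of all genes tested 19.0% had the hairpins on opposite sides in this way, so 2 of 10 is near the background. With quantile normalization the differences were 0.52 and -0.31.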

How the results depend on the processing

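The number of genes called was 328 over all genes, 1 in the set and 3 in the pathway lists. With no filter on low values the numbers were 1 over all genes, 0 in the set and 0 in the lists, and with the scramble libraries averaged they were 0, 0 and 0 (975 of all genes at an unadjusted p under 0.05; limma). Leaving out 1 library in turn gave between 0 and 4532 over all genes, between 0 and 4 in the set and between 0 and 30 in the lists, the lowest without a scramble library and the highest without NIPBL knockdown 1. In such a fit the lone library is assumed to vary like the other group. The number of members whose groups did not overlap was 6, and between 6 and 10 with a library left out. Leaving out a library can only keep or raise that number, so nothing is read from the rise. With a library left out, signs changed for DUSP4 without NIPBL knockdown 2 (log2 changes between -0.15 and 0.303), for DUSP6 without scramble 1 (-0.005) or NIPBL knockdown 1 (between -0.176 and 0.209), for ETV5 without scramble 2 (between -0.043 and 0.168) and for EPHA2 without NIPBL knockdown 2 (between -0.324 and 0.091). The causes were not tested. Of the other values of named genes 330 kept their sign and side of the threshold. Those that passed it anew all came from fits with a NIPBL knockdown library left out. Calls were lost only without a scramble library, with the scramble libraries averaged and with no filter on low values. The call of DUSP1 held with pseudocount 0.1, a mean of at least 5 FPKM, median centring, quantile normalization and no mean trend. With only the hairpin 7 library left in the knockdown group its log2 change was 2.91, and with only the hairpin 1 library it was 3.01. The spread in these fits came from the scramble libraries alone, so they cannot show whether the call holds. The hairpin difference of DUSP4 was 0.46 with pseudocount 0.1, 0.44 with median centring and 0.52 with quantile normalization. Quantile normalization also moved that of DUSP1 to 0.02, against -0.10 as deposited. It moved that of DUSP5 to 0.09, against 0.04, and that of DUSP6 to -0.31, against -0.38. All of these moves were smaller than 0.282, the SD of the scramble difference over all genes tested. No paired analysis was possible because the labels give the libraries no shared replicate numbers. Depth is unknown, so the precision of low genes such as SPRY2 could not be stated.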
